A study of Mus musculus with 4 samples.

Results

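Marrow monocytes and macrophages are described here as they came through a sort for Cxcl12CE-tdTomato+ cells. They were 591 of the 9795 called cells, that is, barcodes with enough genes and UMIs and few mitochondrial UMIs, and they were chosen by their own counts of unique molecular identifiers (UMIs). A member needed at least 1 UMI of Csf1r, the receptor for the macrophage growth factor CSF1, at least 2 UMIs of the lysosomal protease gene Ctss, and at least 1 UMI summed over Ptprc (CD45), the chemokine receptor gene Ccr2, the lectin gene Clec4a3 and the complement gene C1qa. Cells were kept out when Elane, Mpo and Prtn3 together reached 0.2% of their UMIs, when Ltf, Camp and Ngp reached 1.0%, when Retnlg and Stfa2l1 reached 0.2%, or when Adipoq exceeded 1 UMI. The values of these genes in the members are therefore a description.

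The data are droplet-based single-cell RNA-seq of femoral cells from Cxcl12-iCreER; R26R(tdTomato/+) mice, in which tamoxifen turns on tdTomato in cells whose Cxcl12 transgene drives the recombinase. All mice received tamoxifen 7 days ahead of surgery, and cells were taken 7 days after it. ABL is the right femur, from which marrow was removed mechanically, and CONT is the unoperated left femur. There were 2 libraries per condition, 1 in each of 2 biological replicates. Every mouse carried the transgene and the reporter, and every library went through the same gate for tdTomato, so no library samples all marrow monocytes and macrophages. Cells of several mice were pooled for replicate 1, whose libraries (CONT1 and ABL1) used Chromium v2, while those of replicate 2 (CONT2 and ABL2) used v3, so replicate and chemistry cannot be told apart. The labels call the sorted cells mesenchymal, and they give neither age nor sex. Total depth was 44784072 UMIs for CONT1, 22889380 for ABL1, 40486876 for CONT2 and 41536563 for ABL2, and values given as a row of 4 keep this order.

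Monocytes are made in the marrow from committed precursors and leave it for the blood through the receptor CCR2. In tissue they can become macrophages, which clear dead cells with the help of complement C1q, apolipoprotein E and phagocytic receptors, and marrow macrophages also take up red cells and recycle their iron. Under CSF1 and RANKL, precursors of the same lineage fuse into osteoclasts, which dissolve bone mineral with a proton pump and digest its collagen with cathepsin K.

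The members numbered 145 in CONT1, 135 in ABL1, 23 in CONT2 and 288 in ABL2, so CONT2 rests on few cells. Their median depth was 6202, 7543, 17020 and 11637.5 UMIs per cell in the same order, and no member barcode was shared between libraries. The median mitochondrial share of their UMIs was 2.36%, 2.94%, 2.98% and 4.92%, higher in ABL than in CONT of the same replicate and highest in ABL2, and its part in the results was not tested. ABL2 stood apart in sex-linked transcripts. A UMI of Xist, the RNA that silences an X chromosome in females, was found in 47.6% of members in CONT1, 65.2% in ABL1, 47.8% in CONT2 and in 0 of 288 in ABL2, which allows a share of up to 1.04%. Y-linked UMIs were found in 79.2% of the members of ABL2 and in 23.0% to 39.1% elsewhere. The 2 femurs of replicate 2 may therefore not come from the same mice, and values are given for each replicate. In replicate 2, a difference between ABL and CONT cannot be told apart from one in the sex or identity of the mice.

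Markers were looked at next. Among genes of at least 100 CPM (UMIs of a gene scaled to 1000000 UMIs of the cells), those with the highest ratio of members over all other called cells, ranked by their lowest ratio in any library, began with C1qa, C1qc, C1qb, Ctss, Csf1r, Aif1, Ms4a6c and Clec4a1, all genes of the mononuclear phagocyte lineage. C1qa, Ctss and Csf1r belong to the rule, so their place was set by it. Ms4a7, Cd68, Wfdc17 and Mpeg1, which the rule did not use, were also among the first 15. The 5 lineage markers stood as follows in CONT1, ABL1, CONT2 and ABL2, as a description. Csf1r was at 335, 554, 378 and 648 CPM and Ctss at 1175, 1804, 1011 and 1019 CPM, against at most 22.1 and 27.3 CPM in neutrophils. Clec4a3 was nearly level, at 189, 167, 152 and 145 CPM. Ccr2 was at 456, 185, 831 and 109 CPM, and Ms4a4c, a membrane gene of monocytes that the rule did not use, at 415, 141, 265 and 51.1 CPM, so both were lower in each ABL library than in either CONT library. The T and NK cell list (7 genes found) summed to 10.8, 20.6, 0 and 15.4 CPM, with Ccl5 the most abundant and Cd3e, Cd8a and Klrb1c at 0 UMIs. The most abundant transcripts were those of Tmsb4x, Lyz2 (lysozyme), the ferritin chains Ftl1 and Fth1, Malat1, Actb and Apoe. The other genes among the 15 most abundant, mitochondrial and ribosomal protein genes left out, were Gm42418, Tmsb10, Fau, Eef1a1, Tpt1, Psap and the haemoglobin genes Hbb-bs and Hba-a1. Of these only Tmsb10, a thymosin gene, passed the test described below, at 8286, 3476, 5505 and 932 CPM (log2 fold change of ABL over CONT -1.88, edgeR adjusted p = 0.011). RNA of other cells was present as well. The summed level of the neutrophil list was 9071, 6446, 822 and 163 CPM in CONT1, ABL1, CONT2 and ABL2, and that of the erythroid list was 29929, 9595, 196 and 4751 CPM, against 7419, 22760, 3892 and 17868 CPM for the macrophage list and 32873, 23337, 31230 and 11557 CPM for the monocyte list. CONT1 thus carried the most haemoglobin and neutrophil RNA. When the profile of droplets without a cell was subtracted from the members, 256 genes rose and 265 fell in ABL, against 276 and 278 without this step, and the part of attached or engulfed cells was not tested.

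The first question was how much of the sorted population these cells made up after injury. Members were 4.24% of called cells (95% exact binomial interval 3.59 to 4.97) in CONT1 and 9.39% (7.93 to 11.02) in ABL1. In replicate 2 they were 0.96% (0.609 to 1.44) in CONT and 11.3% (10.1 to 12.6) in ABL. Both ABL libraries were above both CONT libraries and the intervals did not overlap, but an exact permutation of 2 against 2 libraries cannot give a two-sided p under 1 in 3, so no test was made. After every cell was thinned to 2700 UMIs the order was the same, at 2.22%, 6.33%, 0.417% and 6.57%. Among haematopoietic called cells alone the shares were 5.99%, 16.8%, 7.17% and 44.6%. The sort sets all of these shares, and loss of other cells cannot be told apart from gain of these.

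**Figure D1:**
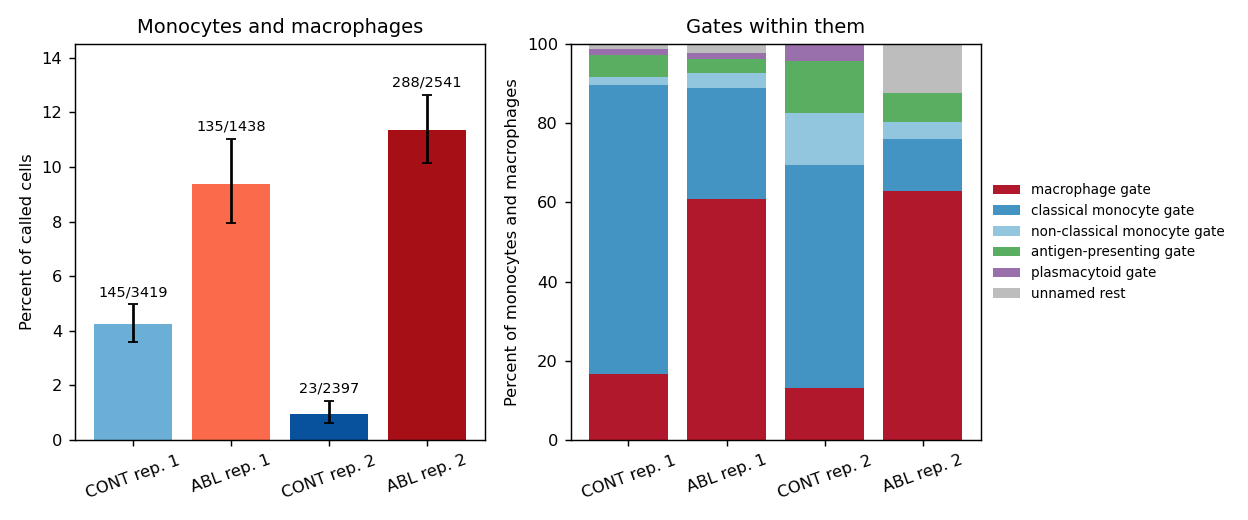
Left, monocytes and macrophages as a percent of called cells in each library, with 95% exact binomial intervals and the cell numbers above the bars; both ABL bars (9.39% and 11.3%) stand above both CONT bars (4.24% and 0.96%). Right, the percent of these cells in each marker gate; the macrophage gate is 60.7% and 62.8% of the ABL and 16.6% and 13.04% of the CONT cells.

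The rule lay close to many cells. Exactly 1 Csf1r UMI was found in 60 of 145 members in CONT1, 33 of 135 in ABL1, 2 of 23 in CONT2 and 24 of 288 in ABL2. Just outside, 103, 55, 26 and 23 cells met every other part of the rule with no Csf1r UMI. Of cells with the required UMIs, 20, 6, 4 and 7 were past the limit on Elane, Mpo and Prtn3, and some may have been past other limits too. This limit alone kept out 5, 1, 2 and 3 cells that had these genes at up to 0.4% of UMIs.

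The share of members in each gate differed between the conditions. They were divided by marker genes taken in a set order: a macrophage gate (C1qa, C1qb and C1qc at or above 0.1% of UMIs), a plasmacytoid gate (Siglech), an antigen-presenting gate (MHC class II and Cd74), a non-classical monocyte gate (Ace, Treml4, Eno3 and Cd300e) and a classical monocyte gate (Ly6c2, Ccr2, F13a1 and Vcan). The macrophage gate held 24 of 145 members (16.6%) in CONT1 and 82 of 135 (60.7%) in ABL1. It held 3 of 23 (13.04%) in CONT2 and 181 of 288 (62.8%) in ABL2. The classical gate ran the other way, at 106 (73.1%), 38 (28.1%), 13 (56.5%) and 38 (13.2%) cells. The groups did not overlap in either gate, which is given as a description with no test, since C1qa and Ccr2 of these gates belong to the member rule and CONT2 had 23 members. The C1q cut passed through few cells, since only 2 members, both in ABL2, lay between 0.05% and 0.1%, while 169 of the 181 in the gate of that library were at or above 0.2%.

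The smaller gates held few cells. The non-classical gate had 3, 5, 3 and 12 cells in CONT1, ABL1, CONT2 and ABL2, and the antigen-presenting gate 8, 5, 3 and 21. Most of the 12 non-classical gate cells of ABL2 carried the osteoclast genes described below, so the gate's name does not describe them. Without such cells the non-classical gate held 0.84% of the members of ABL2. The plasmacytoid gate had 2, 2, 1 and 0 cells. A remainder of 2, 3, 0 and 36 cells met no gate and was left without a name.

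**Figure D2:**
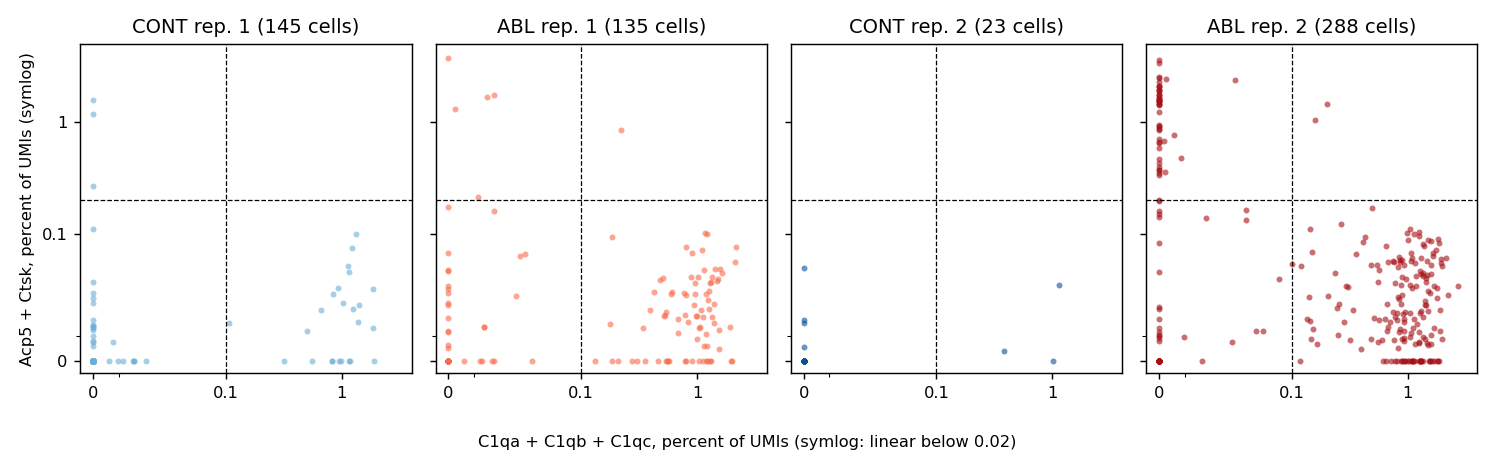
Each point is 1 cell, placed by the percent of its UMIs from C1qa, C1qb and C1qc (horizontal) and from Acp5 and Ctsk (vertical), on symlog axes that are linear below 0.02%; dashed lines mark the gates at 0.1% and 0.2%. The 50 osteoclast-marker cells of ABL2 lie above the horizontal line and nearly all to the left of the vertical one.

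Free RNA bears on such shares, so single genes were set beside neutrophils of the same library after thinning. All cells were thinned to 2700 UMIs. A C1qa UMI was found in 16.6%, 61.5%, 13.04% and 61.1% of members in CONT1, ABL1, CONT2 and ABL2. For Ms4a7, a membrane gene of macrophages that no rule or gate used, the shares were 13.8%, 59.3%, 4.35% and 58.7%, so the same split appeared in a gene that did not define it. Neutrophils had a C1qa UMI in at most 1.82% and a Ms4a7 UMI in at most 1.45% of cells in any library. Ly6c2 behaved differently, since 79.3%, 33.3%, 69.6% and 11.1% of members had a UMI while 74.6% to 92.4% of neutrophils did. Ly6c2 is a gene that both monocytes and neutrophils make.

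A set of very RNA-rich members carried osteoclast genes. Cells with Acp5 (tartrate-resistant acid phosphatase) and Ctsk (cathepsin K) together at or above 0.2% of UMIs numbered 3 (2.07%) in CONT1, 6 (4.44%) in ABL1, 0 in CONT2 and 50 (17.4%) in ABL2. The line of 0.2% was set after the values were seen. A count of 0 of 23 cells allows a share of up to 13.04%. Their median depth was 24330, 21570 and 31939.5 UMIs in the 3 libraries that had them, against 6496, 7584 and 10758 in the macrophage gate, and in ABL2 they held 1593496 of the 4419878 UMIs of all members. Acp5 stood at 5911, 6911 and 7049 CPM in CONT1, ABL1 and ABL2, and Ctsk at 5509, 7966 and 6256 CPM. Mmp9, a collagen-degrading metalloproteinase, was at 2336, 2072 and 2129 CPM. The 3 libraries lay close to each other in these genes, though they held 3, 6 and 50 such cells, and Acp5 and Ctsk chose them. Atp6v0d2 (a subunit of the proton pump), Nfatc1 (the transcription factor of osteoclast formation) and the fusion genes Dcstamp and Ocstamp were present in all 3 libraries, with Atp6v0d2 at 499, 754 and 966 CPM and Dcstamp at 32.2, 128 and 134 CPM. The monocyte gene Ccr2 had UMIs in ABL2 alone, at 5.65 CPM. A floor of 3 counts was 48.3 CPM in CONT1 and 22.6 CPM in ABL1, so the lack of UMIs there does not set ABL2 apart. Of the 50 cells in ABL2, 30 lay in the unnamed remainder and 10 in the non-classical gate. Outside the member rule, a further 5, 12, 0 and 73 called cells were past the same line.

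Promoter sequence is shown for 3 of the genes that lead the rise after injury, Ctsk and Acp5 of the osteoclast and Gpnmb of lysosome-rich macrophages, so that the elements which haematopoietic and lysosomal transcription factors are known to use can be looked for beside the counts. Each runs 5′ to 3′ on the gene's strand from 250 bases before to 50 after an annotated start (RefSeq, GRCm38.p6), with matches in capitals to 3 strings on either strand: GAGGAA, the core bound by PU.1, and CACGTG and CATGTG, the E-boxes of the MITF and TFEB family. GAGGAA occurs in 28.1% of 32544 promoters of this length, CATGTG in 14.2% and CACGTG in 7.17%. The window of Ctsk, chr3:95498960-95499259 on the plus strand, held GAGGAA once on each strand. The window of one of 3 starts of Acp5, chr9:22130549-22130848 on the minus strand, held CATGTG on the reverse strand, and those of the other two starts held none of the 3 strings. The share of 14.2% is for a single window, so it is higher for a gene with several. The window of Gpnmb, chr6:49036268-49036567 on the plus strand, held none of these strings.
Ctsk: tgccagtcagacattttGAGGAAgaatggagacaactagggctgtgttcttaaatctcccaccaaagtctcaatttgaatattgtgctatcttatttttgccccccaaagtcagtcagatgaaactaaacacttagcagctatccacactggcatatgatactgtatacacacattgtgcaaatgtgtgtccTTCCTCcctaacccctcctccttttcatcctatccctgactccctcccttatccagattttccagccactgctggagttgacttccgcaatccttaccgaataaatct
Acp5: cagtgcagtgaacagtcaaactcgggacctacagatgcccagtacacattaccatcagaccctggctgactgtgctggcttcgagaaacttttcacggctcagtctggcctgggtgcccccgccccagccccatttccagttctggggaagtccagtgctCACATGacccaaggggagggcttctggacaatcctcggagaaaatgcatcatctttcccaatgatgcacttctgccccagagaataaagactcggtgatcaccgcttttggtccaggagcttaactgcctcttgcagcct
Gpnmb: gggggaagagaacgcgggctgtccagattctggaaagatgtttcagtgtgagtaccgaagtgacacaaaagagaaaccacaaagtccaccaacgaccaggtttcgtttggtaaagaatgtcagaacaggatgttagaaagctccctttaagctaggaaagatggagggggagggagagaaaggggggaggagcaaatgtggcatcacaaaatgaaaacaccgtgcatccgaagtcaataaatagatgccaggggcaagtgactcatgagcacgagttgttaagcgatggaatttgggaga

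Counts were then summed over the members of each library and ABL was compared with CONT. Of 8428 genes tested, 276 rose (3.27%) and 278 fell (3.3%), which together made 6.57%, by edgeR's quasi-likelihood test with the replicate as a block and a Benjamini-Hochberg adjusted p of 0.05. That fit leaves 1 residual degree of freedom, and with no block 0 genes passed in either direction, with 644 at an unadjusted p under 0.05. The sums pool all gates, so a change in the number of cells of a gate cannot be told apart from a change of RNA per cell. With the osteoclast-marker cells left out, 453 of 8254 genes rose (5.49%) and 326 fell (3.95%), together 9.44%, and these held 236 of the 276 rises and 257 of the 278 falls. With the 14 members of ABL2 whose UMIs of stromal gate genes exceeded those of haematopoietic ones left out, 187 of 8380 rose (2.23%) and 209 fell (2.49%), together 4.73%. When members with any Adipoq UMI or with Cxcl12 at or above 0.1% of UMIs were left out, 61 of 7190 rose and 55 fell, and with no TMM normalization 47 of 8428 rose and 32 fell.

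The largest rises that went the same way in both replicates fell into an osteoclast group, a bone matrix group and Gpnmb. Gpnmb encodes a glycoprotein of lysosomes and melanosomes. It had 1 UMI in CONT1 and 0 in CONT2 against 650 and 507 in ABL, at 0.903, 516, 0 and 115 CPM in that order. Both ABL libraries were above both CONT libraries, by a ratio of 571 in replicate 1 (95% counting interval 102 to 22578) and at least 16.6-fold in replicate 2, with 3 counts as the floor of the empty library. Such ratios and floors cover counting error only, not how many cells were sampled. In ABL2, 64 of 288 members had a Gpnmb UMI, and 10 cells held 68.05% of the members' Gpnmb UMIs. With 23 members in CONT2, the fold of replicate 2 is thus no lower limit once the sampling of cells is counted. The fitted log2 fold change of 9.07 ± 0.81 (SE, edgeR adjusted p = 1.2e-24) depends on the prior count. In ABL1 the classical gate, which 1 UMI of a classical gene suffices to enter, stood at 1201 CPM and the macrophage gate at 227 CPM. In the monocyte gates without osteoclast-marker cells Gpnmb was at 1307 CPM in ABL1 and had no UMI in ABL2. In ABL1, 10 cells held 89.2% of the members' Gpnmb UMIs. Of the 38 members of ABL1 with a Gpnmb UMI, 34 lay in the macrophage gate. The levels of the classical and monocyte gates there thus came from few cells and do not describe these gates as a whole.

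Osteoclast genes rose with the cells described above. Ctsk was at 314, 878, 0 and 2296 CPM in CONT1, ABL1, CONT2 and ABL2, a log2 fold change of 4.31 ± 0.67 (SE, edgeR adjusted p = 7.3e-08). The rise was 2.79-fold in replicate 1. In replicate 2 the 23 cells of CONT2 had no Ctsk UMI, and no fold is given there, since Ctsk RNA lay mostly in the few osteoclast-marker cells and CONT2 had none of these. Acp5 was at 393, 898, 46.1 and 2730 CPM (3.38 ± 0.61, adjusted p = 5.3e-06). Atp6v0d2 was at 30.7, 148, 0 and 385 CPM (3.75 ± 0.50, adjusted p = 1.6e-10), and Mmp9 at 152, 251, 4.61 and 786 CPM (3.02 ± 0.56, adjusted p = 1.3e-05). All of these kept ABL above CONT in both replicates, which their choice required, and the excess in CPM was smaller in replicate 1 than in replicate 2. Of 12 osteoclast-list genes tested, 9 rose and none fell, with a median log2 fold change of 2.27 against -0.0019 over all genes tested. Besides those named they included Tnfrsf11a (RANK, the receptor for RANKL; 1.91), Nfatc1 (1.76), Dcstamp (4.35), Ocstamp (2.63) and Tcirg1, a subunit of the proton pump (1.31). Without the osteoclast-marker cells 5 of 9 tested genes still rose, and Mmp9 did not pass (adjusted p = 0.085). The 5 include Acp5 and Ctsk, whose values decided which cells were left out, so these genes are no support for that count. Ctsk did not pass (4.27, adjusted p = 0.074) when members with any Adipoq UMI or with Cxcl12 at or above 0.1% of UMIs were left out. With no TMM normalization 1 of 12 passed (median 2.26).

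The bone matrix group was made of genes best known from osteoblasts and fibroblasts. Col1a1, a chain of type I collagen, was at 27.1, 504, 6.91 and 1373 CPM in CONT1, ABL1, CONT2 and ABL2 (log2 fold change 5.45 ± 0.56 SE, edgeR adjusted p = 2.8e-18). Neutrophils of the same libraries had 41.9, 534, 2.77 and 2841 CPM, and droplets without a cell 396, 5289, 353 and 11623 CPM, so the members moved with both. In ABL2, 10 cells held 93.6% of the members' Col1a1 UMIs, and 14 members had more UMIs of the stromal than of the haematopoietic gate genes. Without such cells Col1a1 was at 67.5 CPM there and still rose (log2 fold change 3.95, adjusted p = 1.6e-06). With free RNA subtracted from all members, those of mostly stromal UMIs included, Col1a1 still passed as a rise. The subtraction and the removal of those cells were not combined, so a rise free of both sources was not shown. The part of attached stromal cells was not tested. Col1a2 (4.31), Col3a1 (3.51) and Sparc (3.21) rose as well. From the reticular genes Cxcl12, Adipoq and Lepr, free RNA was estimated at 9.13%, 7.37%, 1.27% and 0.924% of the members' UMIs, in the same order. The member rule allows at most 1 Adipoq UMI per cell, which lowers this estimate, so it is no upper bound. The summed level of the osteoblast list was 204, 2020, 71.4 and 3021 CPM in members and 212, 1471, 49.8 and 6058 CPM in neutrophils.

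Spp1, osteopontin, is made by both bone cells and macrophages. It was at 55.1, 895, 34.5 and 617 CPM in members in CONT1, ABL1, CONT2 and ABL2 (4.10 ± 0.50 SE, edgeR adjusted p = 8.9e-13), against 33.1, 189, 16.0 and 183 CPM in neutrophils. After thinning, 53.3% of members and 36.7% of neutrophils had a UMI in ABL1, and 29.9% and 10.4% in ABL2. Members were thus above neutrophils in each ABL library, while both rose over CONT. In the macrophage gate Spp1 was found in 68 of 82 cells of ABL1 and 89 of 181 of ABL2, but 1 cell held 60.7% of the UMIs in the latter.

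**Figure D3:**
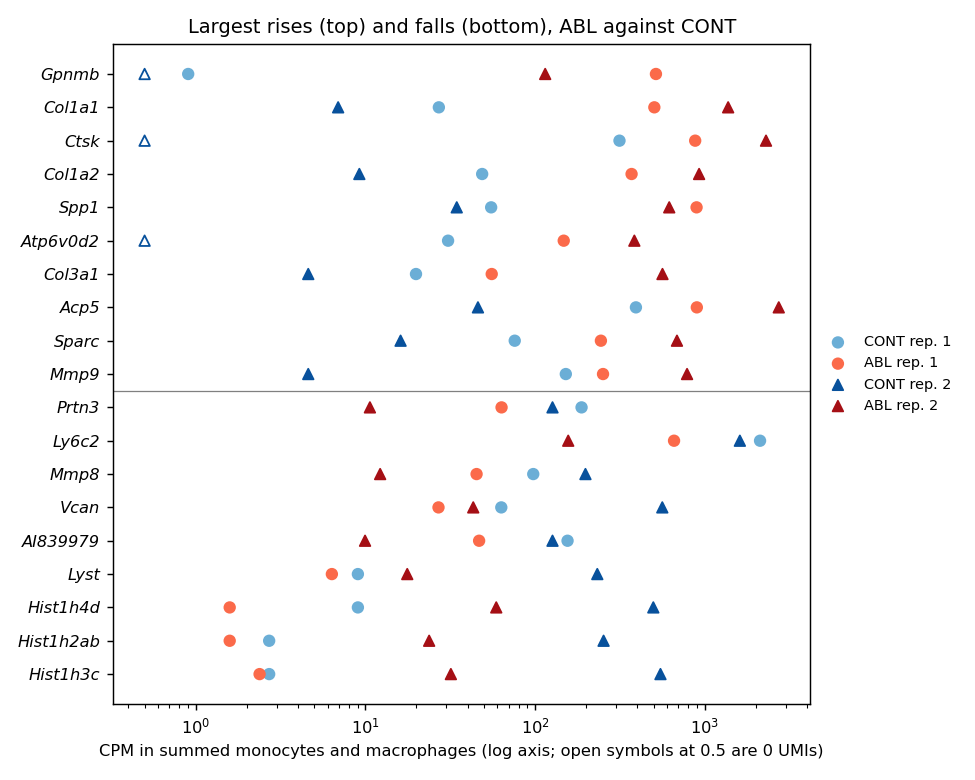
CPM (log axis) of the largest rises (top) and falls (bottom) in monocytes and macrophages summed per library, with CONT in blue, ABL in red, replicate 1 as circles and replicate 2 as triangles; open symbols are libraries with 0 UMIs. Each replicate keeps its direction in every gene, which the choice of these genes required, and the histone genes are low in both libraries of replicate 1.

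Of 19 macrophage genes tested, 10 rose, none fell and 9 did not pass (median log2 fold change 1.31). With no TMM normalization, where 47 of all 8428 genes rose, 3 did so (median 1.28), and 6 without the members of mostly stromal UMIs (median 1.34), so the medians moved little while calls were lost. The 10 include C1qa, which the member rule used, and C1qb and C1qc. Ms4a7 was at 143, 938, 104 and 644 CPM in CONT1, ABL1, CONT2 and ABL2, a log2 fold change of 2.70 ± 0.47 (SE, edgeR adjusted p = 2.1e-06), and the change was nearly the same in each replicate. Apoe, the lipid carrier, was at 3095, 13561, 960 and 9391 CPM (2.74 ± 0.56, adjusted p = 0.00012). Mertk, a receptor for dead cells, rose by 2.19. Adgre1 (F4/80), the classical macrophage surface marker, was at 95.8, 241, 127 and 229 CPM and missed the threshold (1.13 ± 0.41, adjusted p = 0.083), although both ABL libraries were above both CONT libraries.

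Genes of lipid handling and of repair macrophages were tested next. Of 14 lipid genes 8 rose and none fell (median 1.49), and 4 rose with no TMM normalization (median 1.46). Of 22 genes of repair and scar-associated macrophages 10 rose and 4 fell (Chil3, Ear2, Thbs1 and Fn1), and the list's summed level was 7380, 9550, 10857 and 6448 CPM, higher in ABL in replicate 1 and lower in replicate 2. Trem2, a lipid-sensing receptor, was at 106, 481, 48.4 and 337 CPM in CONT1, ABL1, CONT2 and ABL2 (2.48 ± 0.45 SE, edgeR adjusted p = 7.5e-06). Fabp5, a fatty acid carrier, was at 273, 1301, 180 and 903 CPM (2.32 ± 0.47, adjusted p = 9.4e-05). Their ABL values were more than any CONT value in both chemistries. Pltp (1.52), the phospholipid transfer protein, was at 69.6, 215, 154 and 393 CPM and moved by nearly the same amount in each replicate, although CONT2 lay not far below ABL1. Lpl (2.25), which frees fatty acids from lipoproteins, and Abca1 (2.03), which exports cholesterol, rose as well, as did the growth factor gene Igf1 (2.40) and the tetraspanin gene Cd63 (2.60). Mmp14, a membrane-bound collagenase, rose by 2.85. Mmp12, the macrophage elastase, had no UMI in either CONT library and 29.3 and 52.0 CPM in ABL, at least 10.8-fold higher in replicate 1 and at least 7.53-fold in replicate 2.

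Lysosomal and iron genes changed in part. Of 20 lysosome genes tested 4 rose and none fell, among them Ctsd (1.77) and Lgmn (2.13), which encode lysosomal proteases, and Cd68 (1.35), a lysosomal membrane glycoprotein. Of 17 iron and haem genes 3 rose, but none did with no TMM normalization or without the members of mostly stromal UMIs. The list's median log2 fold change hardly moved, at 0.90 in all 3 fits. With no TMM 2 lysosome genes rose. Without the osteoclast-marker cells, where 5.49% of all genes rose, 8 iron and haem genes did so (median 1.16), with Hmox1, Ftl1, Fth1, Slco2b1 and Blvrb added, and 9 lysosome genes. Slc40a1, the iron exporter ferroportin, was at 304, 256, 11.52 and 356 CPM in CONT1, ABL1, CONT2 and ABL2, and its call (1.76, edgeR adjusted p = 0.019) came from replicate 2 alone, where CONT had 5 UMIs.

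Monocyte genes fell. Of 15 tested, 11 fell and none rose (median log2 fold change -1.93), and with no TMM normalization 4 fell (median -1.96). The 11 include Ccr2, a gene of the member rule, which is no support for the count. Ly6c2, a surface protein gene of classical monocytes, was at 2117, 659, 1610 and 157 CPM in CONT1, ABL1, CONT2 and ABL2, a log2 fold change of -2.49 ± 0.50 (SE, edgeR adjusted p = 7.2e-05), and the proteoglycan gene Vcan at 63.2, 27.0, 562 and 43.2 CPM (-2.54 ± 0.45, adjusted p = 5e-06). In both genes the ABL libraries were below both CONT libraries. Chil3 (-2.45), a chitinase-like protein of young monocytes, Hp (-2.10), haptoglobin, F13a1 (-1.99), a clotting factor, Plac8 (-1.85) and Fn1 (-1.81), fibronectin, fell too. Among the largest falls were also AI839979 (-2.62), a long non-coding RNA at chr5:31569595-31571397 on the minus strand (GRCm38), the neutrophil collagenase gene Mmp8 (-2.52) and Lyst (-2.73), a gene of lysosome trafficking. Prtn3 (-2.48), which the rule limits, was also among the 10 largest falls. The histone genes Hist1h3c (-3.43), Hist1h2ab (-2.98) and Hist1h4d (-2.85) led the order, but Hist1h3c had 3 UMIs in each v2 library and its fall rested on CONT2, at 548 CPM. Without that library the log2 fold changes of all 3 histone genes and of Lyst (0.28) were above 0.

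**Figure D4:**
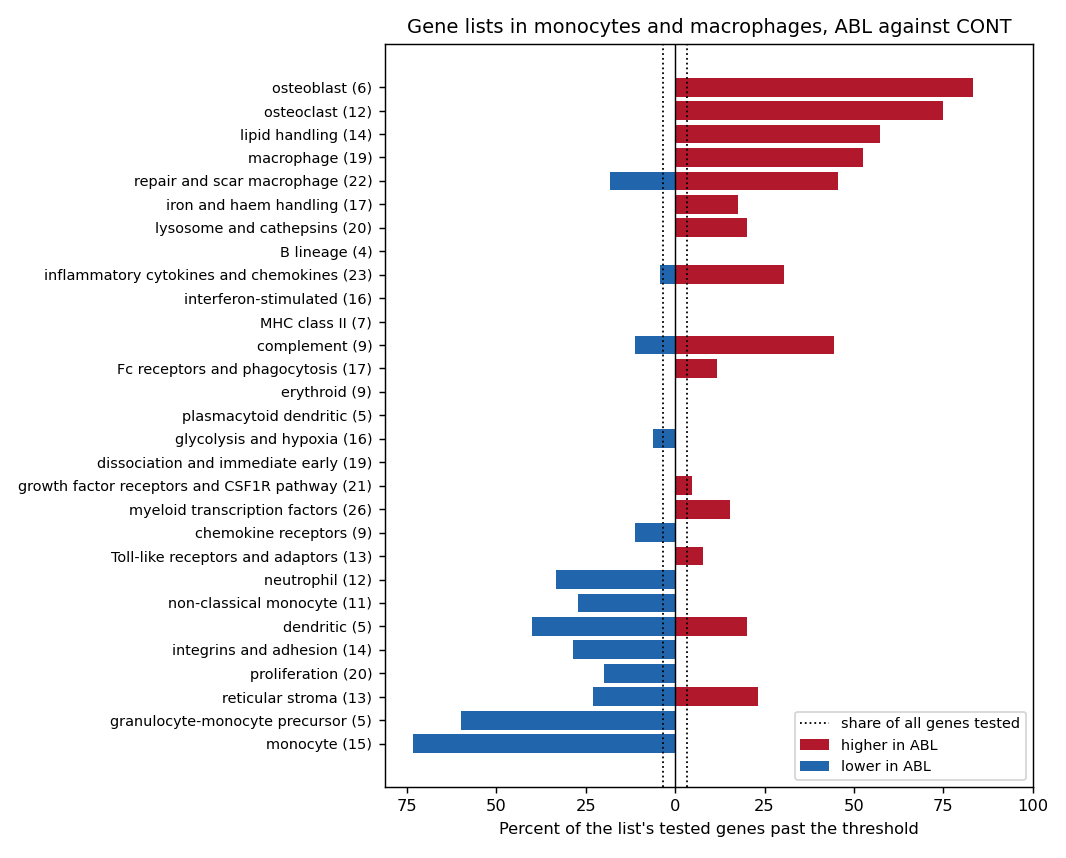
Percent of the tested genes of each list (number in brackets) that rose (red, to the right) or fell (blue, to the left) in ABL at an edgeR adjusted p of 0.05; dotted lines mark the 3.27% and 3.3% of all tested genes that did so. Osteoclast (9 of 12) and lipid genes (8 of 14) lie far to the right and monocyte genes (11 of 15, the rule gene Ccr2 among them) far to the left; the osteoblast list rose by 5 of 6.

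The monocyte gates were also summed alone. When the classical and non-classical gates were summed without the osteoclast-marker cells, over 108, 40, 16 and 35 cells in CONT1, ABL1, CONT2 and ABL2, 39 of 4832 genes rose (0.807%) and 12 fell (0.248%), together 1.06%, and none of the 15 monocyte genes passed (median -0.211), though Ly6c2, Ccr2, F13a1 and Vcan of that list chose the cells, so nothing is read from it. Of the calls, 36 rises and 10 falls were shared with those over all members. Of 13 lipid genes 6 rose there, and markers of other cells rose with them: 5 of 5 osteoblast genes, 4 of 7 stromal gate genes and 3 of 10 genes of reticular stroma, Lpl among the last. Their part in the rise was not tested.

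Complement and dendritic cell genes divided. Of 9 complement genes tested 4 rose, the 3 C1q genes, of which C1qa belongs to the member rule, and C3ar1, the receptor for the C3a fragment, while C3 itself, the central component, fell. C3ar1 was at 28.0, 132, 50.7 and 139 CPM in CONT1, ABL1, CONT2 and ABL2 (1.88 ± 0.42 SE, edgeR adjusted p = 0.00048). C3 was at 164, 61.1, 661 and 113 CPM (-1.97 ± 0.43, adjusted p = 0.00031). In both genes each replicate moved the same way, and for C3 the ABL libraries lay below both CONT libraries. Of 5 dendritic genes Clec10a, a lectin of dendritic cells and macrophages, rose (1.52), and Cd209a (-1.77) and Dpp4 (-2.05) fell. With no TMM normalization none of these 5 passed (median log2 fold change -0.71, against -0.70). Without the osteoclast-marker cells only Clec10a did. None of 5 plasmacytoid genes passed.

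Signals between cells changed in a few genes. Of 23 inflammatory cytokine and chemokine genes tested 7 rose and 1 fell, and with no TMM normalization 2 rose (Ccl12 and Cxcl16) and none fell. Cxcl16 was at 45.2, 245, 34.5 and 173 CPM in CONT1, ABL1, CONT2 and ABL2 (2.40 ± 0.44 SE, edgeR adjusted p = 7.5e-06). Ccl7 (1.96) and Ccl8 (2.10), ligands that draw monocytes, and Il1rn (1.94), the antagonist of the interleukin-1 receptor, rose in the same fit, while Ccl6 fell by 1.34. Il10, an anti-inflammatory cytokine, and the monocyte attractant gene Ccl12 also passed as rises at low levels, Il10 at 0.903, 10.3, 0 and 9.73 CPM and Ccl12 at 2.71, 39.7, 0 and 17.0 CPM. Il1b, the cytokine itself, was at 116, 99.9, 541 and 148 CPM (-1.03, adjusted p = 0.14), and Tnf at 9.94, 13.5, 48.4 and 22.4 CPM (-0.42, adjusted p = 0.82). Neither passed, and for both the CONT library of replicate 2 was the highest. Ccl4 passed as a rise (1.64, adjusted p = 0.030), but replicate 1 went the other way, at 274 CPM in CONT and 227 CPM in ABL.

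Receptors and transcription factors were counted next. Of 26 transcription factor genes of the myeloid lineage 4 rose and none fell: Nr1h3 (1.78), the oxysterol sensor LXR-alpha, Bhlhe40 (1.74), Spic (1.38), the factor of red pulp macrophages, and Maf (1.31). With no TMM normalization none of the 26 passed, Spic was at -0.046 in replicate 1 alone, and Maf was at -1.05 outside the macrophage and dendritic gates. Among 9 chemokine receptor genes only Ccr2, a gene of the rule, fell, and among 13 genes of Toll-like receptors and their adaptors only Tlr7 rose (1.49). Of 21 genes of growth factor receptors and the CSF1R pathway Tgfbr1 alone rose (1.31). Such counts of 1 lie near the 3.27% of all tested genes that rose, so they are no result about these lists. Of 14 integrin and adhesion genes 4 fell, Itgal among them (-1.77). None of 7 MHC class II genes, H2-Ab1 and H2-Eb1 of the antigen-presenting gate among them, 16 interferon-stimulated genes or 19 genes induced by tissue dissociation passed. The MHC gene H2-Aa was at 911, 1201, 917 and 1327 CPM in CONT1, ABL1, CONT2 and ABL2 (0.50 ± 0.46 SE, edgeR adjusted p = 0.73).

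Some cycling genes fell. Of 20 tested 4 fell, Mki67, Hmgb2, Ccna2 and Top2a, none rose and 16 did not pass (median log2 fold change -0.79), and with no TMM normalization none passed (median -0.81), while 7 fell without the osteoclast-marker cells. Mki67 was at 79.5, 38.1, 550 and 151 CPM in CONT1, ABL1, CONT2 and ABL2 (-1.45 ± 0.42 SE, edgeR adjusted p = 0.014), and its log2 fold change was 0.042 without CONT2. After thinning, 15.2%, 7.41%, 39.1% and 12.5% of members had a Mki67 UMI, against 9.41%, 6.18%, 13.1% and 13.6% of neutrophils. CONT was above ABL in each replicate, although ABL2 lay above CONT1 in CPM. The non-classical monocyte list had 3 of 11 genes lower and none higher, Spn (CD43; -2.02), Itgal and Pglyrp1 (-2.20), while its most abundant gene, the fractalkine receptor gene Cx3cr1, was at 107, 269, 182 and 192 CPM and did not pass (0.74, adjusted p = 0.39). With no TMM normalization none of the 11 non-classical genes passed (median log2 fold change -0.73, against -0.68). Of 5 genes of granulocyte and monocyte precursors Prtn3, Ctsg and Elane were lower, but the rule limits Prtn3 and Elane, so nothing is read from this count.

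The macrophage gate was compared by level alone, since CONT2 had only 3 such cells. Several genes known from resident marrow macrophages, named after their values were seen, were highest in CONT1. Vcam1, an adhesion molecule of erythroblastic island macrophages, was at 3468 CPM there, 495 in ABL1 and 1299 in ABL2, and Slc40a1 at 1846, 432 and 721 CPM. Fcna, a lectin of the complement system, was at 1113, 73.4 and 268 CPM, Cd163, the receptor for haptoglobin-bound haemoglobin, at 173, 14.96 and 19.3 CPM, and Cd5l at 274, 6.80 and 21.6 CPM. Every one of these was lower in both ABL libraries than in CONT1, which their choice required. A UMI of Cd5l was found in 11 of 24 cells in CONT1, 1 of 82 in ABL1 and 13 of 181 in ABL2. For Cd163 these counts were 9, 3 and 10 cells. The 3 cells of CONT2 did not share its levels, with Vcam1 at 427, Slc40a1 at 64.7, Fcna at 155 and Cd163 at 104 CPM and no UMI of Cd5l. The macrophage list, which includes the C1q genes of the gate, summed to 37084, 36172, 17586 and 34989 CPM in CONT1, ABL1, CONT2 and ABL2. It was thus nearly level between CONT1 and both ABL libraries. The iron and haem list as a whole summed to 44579, 45112, 23008 and 29113 CPM in the gate in the same order. Genes that were higher in ABL included Trem2, at 252, 659 and 574 CPM, Fabp5, at 436, 1386 and 1052 CPM, and Gpnmb, at 0, 227 and 199 CPM, of which 1 cell held 19.8% in ABL1 and 40.1% in ABL2, where 47 of 181 cells had a UMI. In the 3 cells of CONT2 these genes were at 116, 233 and 0 CPM. A UMI of Trem2 was found in 10 of 24 cells in CONT1, 74 of 82 in ABL1, 3 of 3 in CONT2 and 157 of 181 in ABL2. Igf1 was at 408, 411 and 406 CPM in CONT1, ABL1 and ABL2 and at 116 CPM in CONT2, although it rose over all members. Haemoglobin moved with CONT1: Hbb-bs was at 46687, 4430 and 2977 CPM, and 1 cell held 57.6% of it there. Its part in the difference was not tested.

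**Figure D5:**
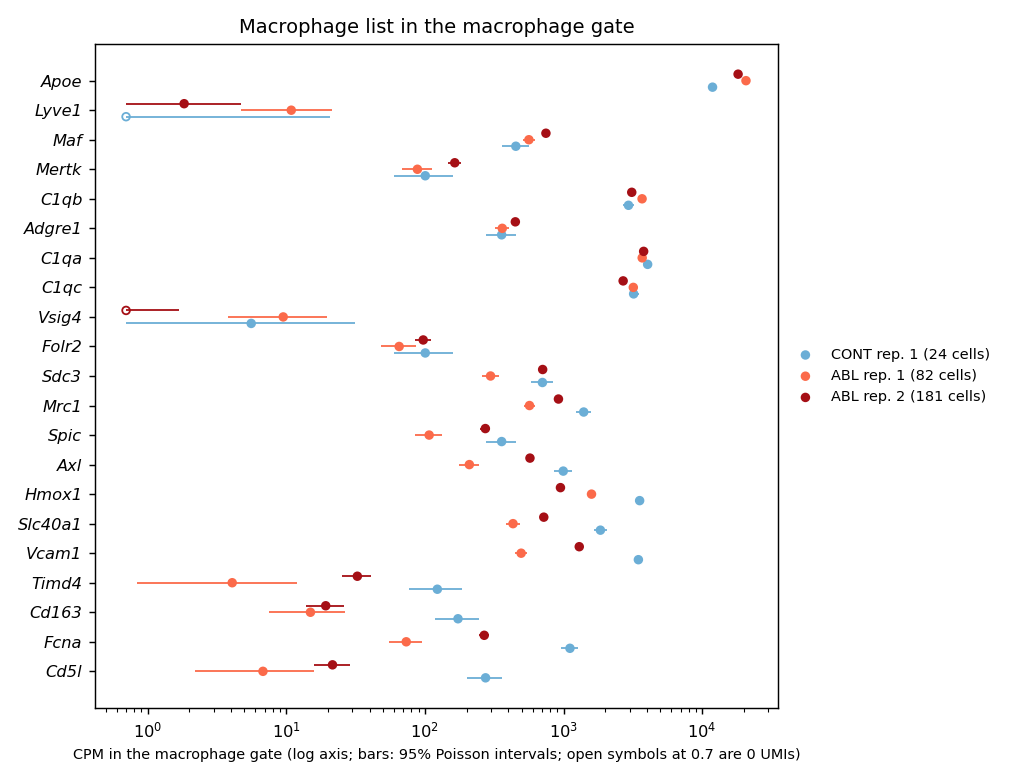
CPM (log axis) of macrophage genes in the macrophage gate of 3 libraries, with 95% Poisson intervals that cover counting error only; CONT2, with 3 cells, is not drawn. Cd5l, Fcna, Cd163, Vcam1 and Slc40a1, named after their values were seen, are highest in CONT1 among the 3 libraries drawn. The cells of CONT2 did not share the levels of CONT1. C1qa helped to choose these cells, so its level was set by the choice.

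Markers of other cells moved in the same sums. Of 12 neutrophil genes tested 4 fell, Mmp8, Chil1, S100a8 and Lcn2, and S100a8 was at 3666, 2518, 364 and 46.6 CPM in CONT1, ABL1, CONT2 and ABL2. Of 13 genes of reticular stroma 3 rose (Col3a1, Sparc and Lpl) and 3 fell (Hp, Igfbp5 and Lepr), of which Lepr was at 227, 79.3, 4.61 and 0.453 CPM. Of 6 osteoblast genes 5 rose, Postn and Bglap among them, and Bglap (osteocalcin) was at 18.1, 135, 0 and 28.5 CPM. With no TMM normalization none of the 12 neutrophil or 13 reticular genes passed, while 5 of 6 osteoblast genes rose. The medians of the neutrophil and reticular lists hardly moved (-0.686 and -1.107, against -0.668 and -1.105). Without the members of mostly stromal UMIs 2 neutrophil genes fell. None of 9 erythroid or 4 B-lineage genes passed. Xist passed as a fall (-3.60) although replicate 1 went the other way. The part of these cells' RNA in the results was not tested.

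The reporter was looked at last, since the sort was for tdTomato. In members the added sequence tdT-WPRE_trans stood at 116, 243, 265 and 455 CPM in CONT1, ABL1, CONT2 and ABL2 (log2 fold change 0.96, edgeR adjusted p = 0.19). After thinning to 2700 UMIs a tdTomato UMI was found in 17.2%, 37.0%, 17.4% and 49.7% of members, 15.1%, 17.8%, 5.74% and 41.6% of neutrophils and 95.9%, 94.8%, 85.3% and 89.7% of stromal cells. Without thinning the shares of members were 33.1%, 56.3%, 56.5% and 66.3%. Members were thus far below stromal cells in each library. Their shares were above those of neutrophils, by little in CONT1 and over 23 members in CONT2, and the difference from neutrophils was not tested. Osteoclast-marker cells had 532, 369 and 293 CPM in CONT1, ABL1 and ABL2. The origin of the reporter RNA was not tested.

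Whether injury moved the members' genes differently from those of neutrophils was tested as an interaction over both cell types. None of 9873 genes passed (0.0%), with 841 at an unadjusted p under 0.05, by edgeR's quasi-likelihood test. This count depended on the scaling, the filter and single libraries: 69 genes were higher and 126 lower with no TMM, 96 and 124 with no filter on low counts, 119 and 181 without CONT1, and 57 and 127 without ABL1. In simulated data of this design, every gene had a dispersion of 0.1, and changes were planted in genes of at least 50 CPM in both cell types. There 78.8% of 8-fold and 11.9% of 4-fold differences were recovered, with 5 false calls among 66, so smaller differences would mostly have been missed. Genes low in either cell type, or of another dispersion, are not covered by these shares.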

How the data were processed

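Per the labels and the study's methods, tdTomato+ cells were sorted from enzymatically dissociated femurs with the ends removed, and the authors deposited raw UMI counts made with Cell Ranger (mm10 with reporter sequences), unfiltered, for every barcode. No normalization had been applied to the deposited counts. Cells were called at 500 genes, 20.0% mitochondrial and 2700 UMIs (v2) or 1000 genes, 15.0% and 4000 UMIs (v3). Doublets were called with Scrublet (scanpy 1.11.5) and kept; the caller marked 0.042% of cells in CONT2 and so did not work there.

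UMIs were summed per library and tested in edgeR 4.0.16 (R 4.3.3; TMM, filterByExpr, replicate block). The block follows the study's contralateral design, though the Xist values leave doubt that the femurs of replicate 2 came from the same mice, and no call was made without it; deviations from the condition means correlated within replicates (r = 0.49 across genes), which includes chemistry. In simulated data of the comparison of ABL with CONT (8366 genes), 55.2% of 4-fold and 93.9% of 8-fold changes were recovered. The simulation set a dispersion of 0.1 for every gene and planted changes only in genes of at least 50 CPM. Intervals are exact binomial or Poisson at 95.0% and cover counting error only; a level of 0 was set to a floor of 3 counts per library for fold bounds. The study calls the replicates biological, with 2 per condition. The p-values rest on 1 residual degree of freedom and on a variance estimate that edgeR shares across genes. They are thus no measure of the spread between libraries or mice. Slc40a1 and Ccl4 passed although replicate 1 went the other way.

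The named genes are those of the rule and gates, the 10 largest rises and falls among genes past an adjusted p of 0.05 that moved the same way in both replicates with at least 50 CPM on average, the 15 most abundant genes, the 15 with the highest ratio over other called cells, and genes of the lists. The members and lists were chosen with earlier results of these data known. DESeq2 1.42.0, other cell filters, no TMM, no block and libraries left out were alternatives; leaving out osteoclast-marker cells or members with mostly stromal UMIs was added after the data were seen. One gene that these rules name is not reported here.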

Additional observations from a re-analysis of the deposited data

How the results depend on the processing

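The difference in the share of called cells (7.76 percentage points, mean of ABL minus CONT) was 24.1 points over haematopoietic cells and 5.15 to 10.4 when 1 replicate was left out. That of the macrophage gate (47.0 points) was 64.9 after thinning, 41.7 without members carrying stromal RNA and 54.0 without osteoclast-marker cells, and 44.2 to 49.8 with 1 replicate left out; that of the classical gate (-44.1) was -43.0 with no UMI minimum and -39.9 without stromal RNA. The 276 rises and 278 falls became 0 and 0 with no replicate block, where all 73 genes followed here kept their direction and lost the call, 47 and 32 with no TMM, 63 and 72 in DESeq2, 61 and 55 without stromal RNA, 99 and 21 outside the macrophage and dendritic gates, 453 rises without osteoclast-marker cells, and 39 and 12 in the monocyte gates without them. Leaving out 1 library, in a fit with no block that takes the lone library to vary like the others, gave 0 to 33 rises and 0 to 62 falls: 0 and 0 without CONT1 or CONT2, 33 and 62 without ABL1, and 13 and 9 without ABL2. The interaction with neutrophils (0 and 0) gave 69 and 126 calls with no TMM, 96 and 124 with no filter, and 0 to 119 and 1 to 181 with 1 library left out. With 1 library or replicate left out, the log2 fold changes of 9 genes reached both signs and those of the other genes followed kept theirs: Hist1h2ab (-5.85 to 2.11), Hist1h3c (-6.42 to 2.52), Hist1h4d (-6.85 to 1.58), Lyst (-3.92 to 0.28), Mki67 (-2.74 to 0.042), Slc40a1 (-0.35 to 5.04; -0.17 without CONT2) and Ccl4 (-0.58 without CONT2, -0.38 without replicate 2, up to 11.8 without CONT1) turned without CONT2 or replicate 2, Spic without replicate 2 (-0.046 to 3.52), and Gm9733 without CONT1 (-3.83 to 0.35). In the monocyte gates without osteoclast-marker cells it turned for Ccl6 (0.14), Gm9733 (0.32), Plac8 (0.12) and Maf (-0.21), and outside the macrophage and dendritic gates for Maf (-1.05). The causes were not tested. The 23 cells of CONT2 and 1 residual degree of freedom limit every call.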
